A study of Homo sapiens with 8 samples.

Results

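The genes described here are 10 direct targets and feedback genes of Wnt and beta-catenin signaling, AXIN2, NKD1, NOTUM, RNF43, ZNRF3, TCF7, LEF1, SP5, LGR5 and ASCL2. They were chosen by symbol as known members of the pathway, with earlier results of these data known, and all 10 were found among the 42125 genes of the table for TFAP2C KD and among the 23393 genes of the table for UBA2 KD. The cells were HCT116, a human colorectal cancer line that is known for an activating mutation of CTNNB1, the gene of beta-catenin. Each of the 8 libraries came from HCT116 cells with a stable, doxycycline-inducible (Tet-On) shRNA against UBA2, which the labels name SAE2. UBA2 is a subunit of the enzyme that activates SUMO for transfer to proteins, and TFAP2C is a transcription factor of the AP-2 family. A pair of groups was transfected for 48 hrs, with control siRNA or with siRNA to TFAP2C (TFAP2C KD). Another pair was given DMSO (control) or 1 μg/mL of doxycycline (UBA2 KD) for 5 days. No group was without the shRNA, so effects of doxycycline itself and of the knockdown cannot be told apart in this pair. Each of the 4 groups had 2 libraries. The labels give a single line and do not say whether the libraries came from separate cultures, so the p-values measure the spread between these libraries. They do not say whether the line is a clone, or whether the siRNA groups also received doxycycline.

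In Wnt signaling, a secreted Wnt ligand binds Frizzled and LRP receptors and halts a destruction complex of APC, AXIN and kinases that otherwise marks beta-catenin for degradation. Beta-catenin then enters the nucleus, joins TCF and LEF proteins on DNA, and turns on target genes. Many of these targets feed back on the pathway as inhibitors. In the colon, the pathway maintains the stem cells at the base of the crypt, and mutations in APC or CTNNB1 keep it active in most colorectal tumors.

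The libraries held between 18213739 and 24465109 counts. In TFAP2C KD, 14991 genes were tested and 111 passed an adjusted p under 0.05 (edgeR's quasi-likelihood test with Benjamini-Hochberg adjustment), 39 higher and 72 lower. The 2 TFAP2C KD libraries stood further apart than other replicates, with a chi-square per degree of freedom of 8.38 between them against 2.47 to 2.68 in the other groups. In UBA2 KD, 13381 genes were tested and 738 were higher and 598 lower. With library size in place of TMM scaling, 588 were higher and 805 lower. TFAP2C had 18.9 and 20.5 CPM (counts scaled to a common library size) with control siRNA and 3.46 and 4.30 CPM in TFAP2C KD, so its mRNA was lower in both knockdown libraries (log2 fold change -2.34, standard error 0.13, adjusted p = 7.67e-06, edgeR). UBA2 had 162 and 146 CPM in the control libraries and 147 and 153 CPM in those given doxycycline, and these values overlap. Its log2 fold change of -0.036 (standard error 0.056, 95% confidence interval -0.15 to 0.078, adjusted p = 0.766, edgeR) gave no detectable fall, so these 2 libraries are called the libraries labelled UBA2 KD. Of 9 colorectal epithelial markers, 6 passed the expression filter in each table, while VIL1, LGALS4 and CDH17 were at or below 0.250 CPM in every library. The sums of 5 leukocyte and 4 endothelial markers did not exceed 1.53 and 2.67 CPM. Fibroblast markers summed to between 15.1 and 48.3 CPM, nearly all of it COL1A1, and COL1A2, DCN and LUM had 0 counts in all 8 libraries. In a bulk sample, fewer expressing cells and less RNA per cell cannot be told apart.

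TCF and LEF proteins recognize a short motif, searched here on both strands as CTTTG followed by AA, by AT, by TA or by TT. RefSeq promoter sequence (GRCh38.p14, 300 bases that begin at -250 bp from the start site) was matched by symbol for 4 of the 10 genes, TCF7 and RNF43 with more than 1 promoter and LEF1 and SP5. SP5 and the second promoter of TCF7 are shown because they held the motif among these 6 promoters. Capitals mark the matches, and matches to the minus strand appear as their reverse complement.
SP5, chr2:170715087-170715386, plus strand: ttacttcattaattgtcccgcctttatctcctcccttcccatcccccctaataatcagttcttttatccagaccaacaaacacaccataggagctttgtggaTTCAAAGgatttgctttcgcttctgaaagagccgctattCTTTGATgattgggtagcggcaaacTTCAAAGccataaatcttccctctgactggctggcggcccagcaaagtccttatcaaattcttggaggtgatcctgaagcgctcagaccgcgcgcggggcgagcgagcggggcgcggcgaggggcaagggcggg
TCF7, chr5:134123368-134123667, plus strand: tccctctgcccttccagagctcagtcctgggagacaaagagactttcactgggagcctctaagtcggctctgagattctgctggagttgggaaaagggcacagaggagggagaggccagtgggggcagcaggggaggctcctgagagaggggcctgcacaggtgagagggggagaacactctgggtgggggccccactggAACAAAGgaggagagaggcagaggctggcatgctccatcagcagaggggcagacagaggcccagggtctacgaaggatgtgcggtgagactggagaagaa

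SP5 held 3 matches, at -148, -109 and -84 bp from its start site. TCF7 held 1 match, at -50 bp in its second promoter. The other promoter of TCF7, that of LEF1 and the 2 of RNF43 held 0 in these windows. Of 35116 promoters of 300 bases, 13.8% held at least 1 match and 0.179% (63 promoters) held at least 3. A match is only a description of the letters in the window, and no binding was measured here.

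Levels were compared between genes as CPM divided by the gene length in kb that each table gives (RPKM). Of the 10 genes, 7 passed the expression filter in each table, and LEF1, LGR5 and ASCL2 did not. In the control libraries of UBA2 KD, RNF43 was highest at 20.5 and 22.0 RPKM. AXIN2 with 9.51 and 10.4 RPKM and TCF7 with 9.18 and 10.1 RPKM followed, and their values overlapped. ZNRF3 (6.33 to 6.69 RPKM) lay above NOTUM (5.45 to 5.76 RPKM), NKD1 (1.89 to 1.92 RPKM) and SP5 (0.906 to 0.936 RPKM), with no overlap between neighbors in this order.

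The order of the RPKM levels was different with control siRNA. NOTUM was highest at 9.67 and 10.4 RPKM, before ZNRF3 (5.09 to 5.53 RPKM) and TCF7 (4.47 to 4.70 RPKM). NKD1 (2.03 to 2.16 RPKM) and AXIN2 (1.67 to 2.17 RPKM) overlapped. SP5 (0.678 and 1.05 RPKM) and RNF43 (0.461 and 0.591 RPKM) were lowest. The tables were counted on different gene models. The length of NKD1 was 17.348 kb in the table of TFAP2C KD and 8.706 kb in that of UBA2 KD, and TCF7 was 10.081 and 4.978 kb. Levels are therefore ordered within a table only, and each order also rests on the gene models of its table.

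**Figure D1:**
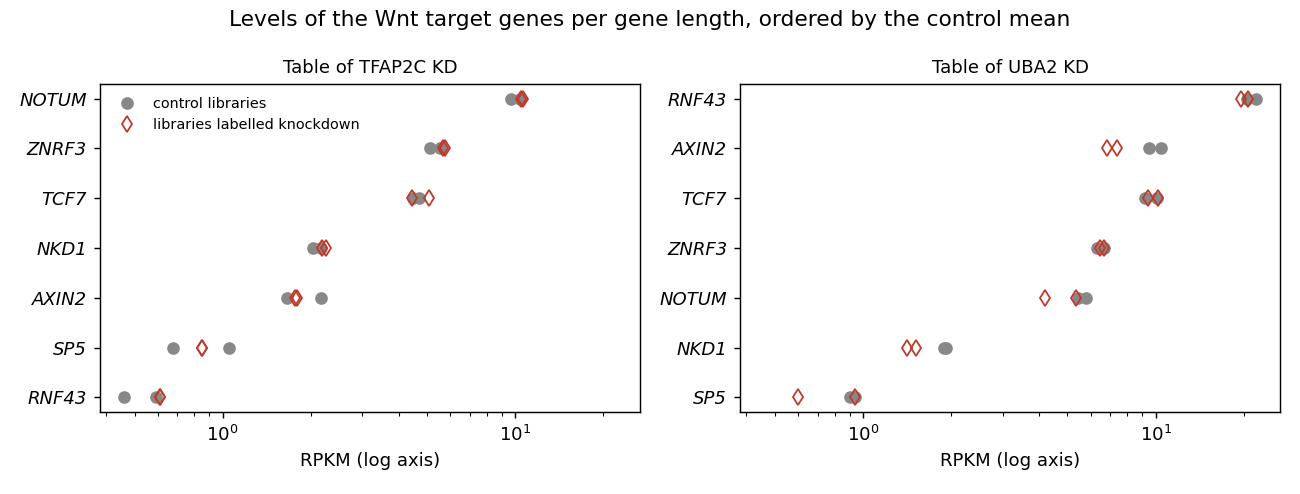
Levels of the 7 tested Wnt target genes in RPKM on a log axis, with the table of TFAP2C KD on the left and that of UBA2 KD on the right. Each filled circle is a control library and each open diamond a library labelled knockdown, and genes are ordered by the control mean. RNF43 is lowest on the left and highest on the right, and the tables were counted on different gene models.

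RNF43 and AXIN2 were lower in the table of TFAP2C KD, and their rows share bases with other genes. RNF43 had 72 to 110 counts in a library of TFAP2C KD or its control and 2227 to 2799 in a library of UBA2 KD or its control. In the first table, a row on the same strand, AC004687.2, spans all of RNF43 and reaches into SUPT4H1, its neighbor. It held only 1 to 7 counts. SUPT4H1 was low there as well, at 0.674 to 1.25 CPM of the whole library, against 79.2 to 86.2 CPM in the table of UBA2 KD, which has no such row. AXIN2 had 181 to 275 counts in the first table, where AC004805.1 overlaps it with 0 counts, and 604 to 1073 counts in the other. Reads that fall on more than 1 gene can be left out of a count, and the part of these overlaps in the low values was not tested. NKD1 and ZNRF3 also overlap rows on the same strand in the first table, AC007608.4 and ZNRF3-IT1. NKD1 had 783 to 935 counts there and 221 to 348 in the other, and ZNRF3 had 739 to 961 and 809 to 893. NOTUM, for which no overlap was found, had 585 to 734 counts in the first table and 172 to 251 in the other.

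The inhibitors that act inside the cell are AXIN2, a scaffold of the destruction complex, and NKD1, which binds Dishevelled. AXIN2 (chr17:63524683-63637183 on hg19, minus strand) had 46.8 and 51.4 CPM in the control libraries and 33.5 and 36.5 CPM in the libraries labelled UBA2 KD. Both labelled libraries lay below both controls. The mean fell from 49.1 ± 3.27 to 35.0 ± 2.07 CPM (SD, n = 2 each), a log2 fold change of -0.49 (standard error 0.074, 95% confidence interval -0.64 to -0.34, adjusted p = 1.47e-05, edgeR). With any single library left out it was between -0.55 and -0.42, past the threshold each time. The AXIN2 row of this table overlaps CEP112 on the same strand at its far end. CEP112 had 193 and 214 counts in the controls and 181 and 230 in the labelled libraries, and these overlap.

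In TFAP2C KD, AXIN2 showed no change that could be detected. It had 11.3 and 8.68 CPM with control siRNA and 9.21 and 9.35 CPM in TFAP2C KD, and both knockdown libraries lay between the controls. The log2 fold change was -0.11 (standard error 0.14, 95% confidence interval -0.41 to 0.19, adjusted p = 0.772, edgeR), and without control siRNA replicate 1 it was 0.097.

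NKD1 (chr16:50582241-50674771 on hg19, plus strand) had 16.5 and 16.7 CPM in the controls of UBA2 KD and 12.3 and 13.2 CPM in the labelled libraries. Here too, both labelled libraries lay below both controls. The log2 fold change was -0.38 (standard error 0.10, 95% confidence interval -0.59 to -0.17, adjusted p = 0.0153, edgeR). This call was lost with the Wald test of DESeq2, both on all genes with a count (adjusted p = 0.228) and on the genes that passed the expression filter (adjusted p = 0.165). It was also lost without control replicate 2 (adjusted p = 0.0690, edgeR) and without UBA2 KD replicate 1 (adjusted p = 0.117, edgeR), while the log2 fold change without any single library was between -0.43 and -0.33. In TFAP2C KD, NKD1 had 35.3 and 37.5 CPM with control siRNA and 39.0 and 37.9 CPM in the knockdown. Both knockdown libraries were higher, by less than the test could separate from the spread (log2 fold change 0.080, standard error 0.083, 95% confidence interval -0.10 to 0.26, adjusted p = 0.728, edgeR).

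**Figure D2:**
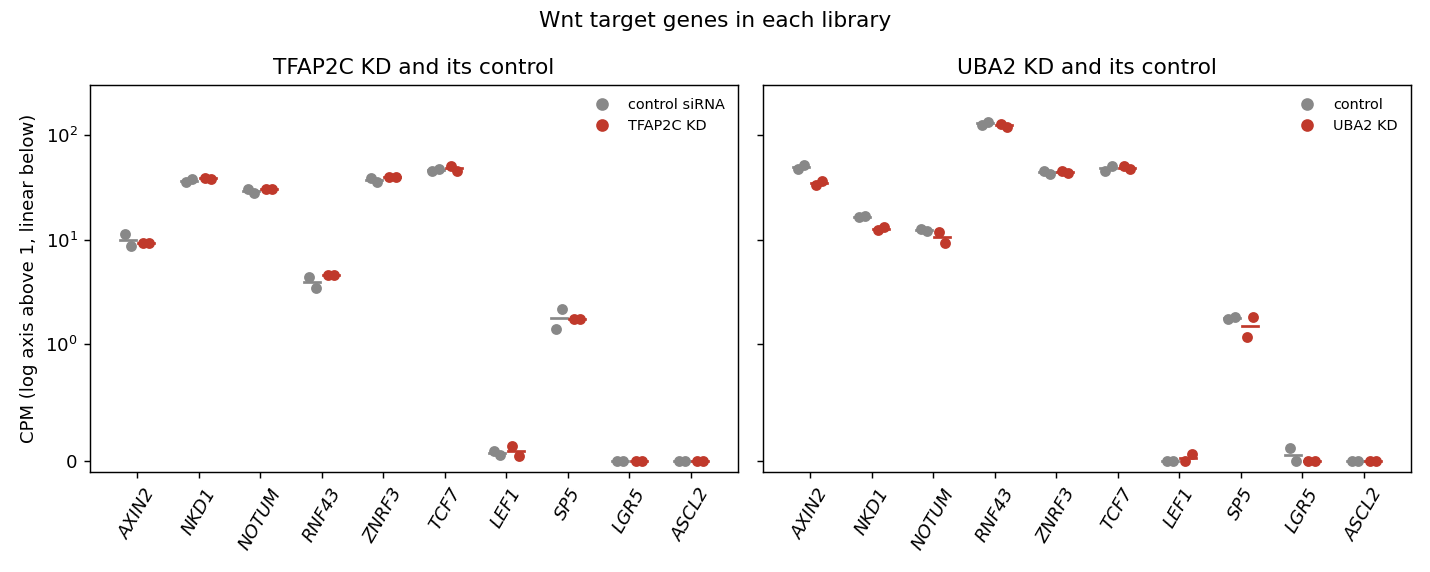
CPM of the 10 Wnt target genes in each of the 8 libraries, on an axis that is logarithmic above 1 and linear below. Grey points are control libraries, red points are the libraries labelled TFAP2C KD or UBA2 KD, and bars are means of 2. AXIN2 and NKD1 on the right are the genes whose red points lie clearly under the grey ones, and LEF1, LGR5 and ASCL2 lie at or near 0 in both panels.

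NOTUM is a secreted enzyme that removes the lipid from Wnt ligands. At chr17:79910383-79919057 on hg19 (minus strand), it had 12.7 and 12.03 CPM in the controls of UBA2 KD and 11.8 and 9.24 CPM in the labelled libraries. Both labelled libraries were below both controls, but the replicates of the labelled group differed by more than the gap between the groups. The log2 fold change was -0.23 (standard error 0.12, 95% confidence interval -0.48 to 0.014, adjusted p = 0.254, edgeR), and it was -0.42 without UBA2 KD replicate 1 and -0.063 without replicate 2. With siRNA, NOTUM had 30.1 and 28.0 CPM in the controls and 30.4 and 30.7 CPM in TFAP2C KD (log2 fold change 0.071, standard error 0.087, adjusted p = 0.773, edgeR). The knockdown libraries were both higher, by a margin smaller than the difference between the controls.

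RNF43 and ZNRF3 are ubiquitin ligases of the cell membrane that clear Frizzled receptors from the surface. RNF43 (chr17:56431038-56494931 on hg19, minus strand) had 125 and 134 CPM in the controls of UBA2 KD and 126 and 120 CPM in the labelled libraries. The groups overlapped, and the log2 fold change was -0.076 (standard error 0.057, 95% confidence interval -0.19 to 0.039, adjusted p = 0.465, edgeR). In TFAP2C KD the values were 4.43 and 3.45 CPM in the controls and 4.59 and 4.56 CPM in the knockdown. Those of the knockdown were higher, and the interval of the log2 fold change of 0.21 was wide at these counts, from -0.15 to 0.56 (adjusted p = 0.639, edgeR). Its size turned on the controls, with 0.41 without control siRNA replicate 1 and 0.035 without replicate 2.

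ZNRF3 (chr22:29279755-29453476 on hg19, plus strand) had 45.2 and 42.8 CPM in the controls of UBA2 KD and 44.9 and 43.7 CPM in the labelled libraries, which lay between the controls. The log2 fold change was 0.010 (standard error 0.070, 95% confidence interval -0.13 to 0.15, adjusted p = 0.951, edgeR). In TFAP2C KD it had 38.5 and 35.4 CPM in the controls and 40.1 and 39.4 CPM in the knockdown. Both knockdown libraries were higher, and the log2 fold change of 0.10 (standard error 0.084, 95% confidence interval -0.078 to 0.29) did not pass (adjusted p = 0.641, edgeR).

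TCF7 and LEF1 belong to the DNA-binding TCF and LEF proteins that beta-catenin joins. TCF7 (chr5:133450402-133483920 on hg19, plus strand) had 45.7 and 50.3 CPM in the controls of UBA2 KD and 50.6 and 46.8 CPM in the labelled libraries. With siRNA it had 45.1 and 47.4 CPM in the controls and 50.9 and 44.7 CPM in TFAP2C KD. The groups overlapped in both experiments, with log2 fold changes of 0.020 (95% confidence interval -0.13 to 0.16, adjusted p = 0.906, edgeR) and 0.050 (95% confidence interval -0.14 to 0.24, adjusted p = 0.847, edgeR). In the table of TFAP2C KD, TCF7 overlaps SKP1 on the opposite strand, and the strand setting of the counting is not given in the sources used here. LEF1 had 2 and 1 counts with control siRNA, 3 and 1 in TFAP2C KD, 0 in both controls of UBA2 KD, and 0 and 1 in the labelled libraries. It was at or under the floor of 3 counts in all 8 libraries and did not pass the expression filter, so no change is given.

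SP5 is a zinc finger transcription factor, and its promoter is the one above with 3 motif matches. At chr2:171571857-171574498 on hg19 (plus strand), it had 1.76 and 1.82 CPM in the controls of UBA2 KD and 1.17 and 1.83 CPM in the labelled libraries. Only 1 of the labelled libraries was lower, so the groups overlapped (log2 fold change -0.26, standard error 0.28, 95% confidence interval -0.82 to 0.31, adjusted p = 0.649, edgeR). With siRNA, SP5 had 1.40 and 2.16 CPM in the controls and 1.75 CPM in each TFAP2C KD library, which lay between them. The interval of its log2 fold change of -0.0038 ran from -0.56 to 0.55 (adjusted p = 0.996, edgeR). These intervals are the widest of the 7 genes in either experiment.

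LGR5, a receptor for R-spondins, and ASCL2, a transcription factor, mark the stem cells at the base of the crypt. LGR5 had 2 counts in control replicate 1 and 0 in the other 7 libraries. ASCL2 had 0 counts in all 8. A count of 0 allows up to 3 counts, which is 0.123 to 0.165 CPM of the whole library in these libraries, for counting error only. Neither gene gave a change that these depths could show.

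Of the 7 genes tested in TFAP2C KD, 0 passed the threshold, against 0.74% of all genes tested. At an unadjusted p under 0.05 there were also 0, and DESeq2 called 0. The median log2 fold change of the 7 was 0.071, with 5 above 0, beside a median of -0.0038 over all genes tested. In 4 of them, NKD1, NOTUM, RNF43 and ZNRF3, both knockdown libraries lay above both controls. The groups did not overlap in 44.7% of all genes tested, in either direction. Leaving out each library in turn, the replicates of TFAP2C KD included, gave 0 calls among the 7 each time.

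In the libraries labelled UBA2 KD, 2 of the 7 tested genes were lower, AXIN2 and NKD1, and 0 were higher. Of all genes tested, 9.98% passed the threshold and 4.47% passed and were lower. The median log2 fold change of the 7 was -0.23, with 2 above 0, beside a median of -0.00042 over all genes tested. Both labelled libraries lay below both controls in 3 of the 7, AXIN2, NKD1 and NOTUM, while the groups did not overlap in 51.3% of all genes tested, in either direction. The summed level of the 9 epithelial markers moved with the group, with 2151 and 2169 CPM in the controls and 2408 and 2500 CPM in the labelled libraries. In TFAP2C KD it was also higher, with 2804 and 2913 CPM for control siRNA and 3134 and 3404 CPM for the knockdown. KRT8, KRT18 and KRT19 made up most of the sum in both experiments. In TFAP2C KD, EPCAM had a mean of 193 CPM in both groups and CDH1 had 125 CPM in the controls and 121 CPM in the knockdown. In the libraries labelled UBA2 KD, EPCAM rose from a mean of 352 to 389 CPM, while the groups of CDH1 and of CDX2 overlapped. The part of these shifts in the results was not tested.

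**Figure D3:**
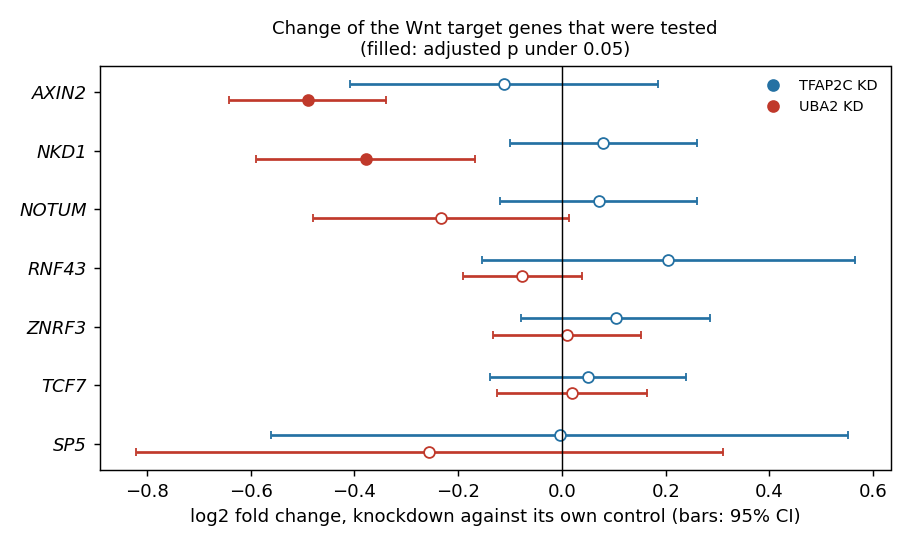
Log2 fold change of the 7 tested Wnt target genes, knockdown against its own control, with TFAP2C KD in blue and the libraries labelled UBA2 KD in red. Bars are 95% confidence intervals and filled points have an adjusted p under 0.05. The filled points are those of AXIN2 at -0.49 and NKD1 at -0.38.

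Whether the genes changed differently in the experiments was tested on 13179 genes with the 8 libraries fitted jointly. The difference is the log2 fold change of TFAP2C KD minus that of UBA2 KD as labelled. None of the 7 passed at an adjusted p under 0.05 (0 of 7, edgeR), against 2.37% of all genes tested. At an unadjusted p under 0.05 there were 2 of the 7 and 1864 of all genes. NKD1 had the largest difference of the 7, 0.45 on the log2 scale (standard error 0.12, 95% confidence interval 0.19 to 0.70, adjusted p = 0.0685, edgeR). It passed without a filter on low counts (adjusted p = 0.0336, edgeR) but not with the replicate block (adjusted p = 0.193, edgeR). With any single library left out, the difference of NKD1 was between 0.39 and 0.52. For AXIN2 the difference was 0.36 (standard error 0.16, 95% confidence interval 0.025 to 0.70, adjusted p = 0.313, edgeR), and it was 0.57 without control siRNA replicate 1 and 0.19 without replicate 2. The difference lay above 0 in all 7 genes with all libraries in the fit, with a median of 0.27 beside -0.00056 over all genes, and for TCF7 and SP5 its sign turned when single libraries were left out. A fall of AXIN2 and NKD1 that is particular to the libraries labelled UBA2 KD was therefore not shown. Experiment and knockdown cannot be told apart in this comparison, since each experiment had its own controls, duration and table.

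The rest of the pathway was followed in 7 lists with 124 genes in all, of which 90 were tested in each experiment. CTNNB1 itself had 393 and 377 CPM with control siRNA and 390 and 373 CPM in TFAP2C KD (log2 fold change -0.015, adjusted p = 0.947, edgeR), and the groups overlapped. In UBA2 KD it had 552 and 544 CPM in the controls and 516 and 536 CPM in the labelled libraries, both lower, and the log2 fold change of -0.059 (95% confidence interval -0.15 to 0.029, adjusted p = 0.453, edgeR) was not past the threshold. In TFAP2C KD, 0 of the 90 genes passed, beside 0.74% of all genes, and the median log2 fold change was -0.025. At an unadjusted p under 0.05 there were 8 of the 90 and 1889 of all 14991 genes. DESeq2, on either set of genes, called 1 gene, CCND1, the cell cycle regulator cyclin D1, which is named after its value was seen. It had 709 and 725 CPM with control siRNA and 924 and 864 CPM in TFAP2C KD (log2 fold change 0.32, standard error 0.068, adjusted p = 0.0596, edgeR). Without TFAP2C KD replicate 2, 15 of the 90 genes passed, but so did 2849 of all 14991 genes. Without replicate 1 there were 3 of the 90 and 532 of all genes.

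In the libraries labelled UBA2 KD, 17 of the 90 passed (18.9%, against 9.98% of all genes tested), 11 higher and 6 lower, and the median log2 fold change was -0.026. By list, the share was 7.14% for receptors, 12.5% for the nuclear complex, 13.3% for ligands and 15.8% for the destruction complex and transducers. It was 16.7% for crypt stem cell genes, 20% for secreted inhibitors and 46.7% for other Wnt targets. Outside the last list, each share rests on 1 to 3 genes. Among 15 tested genes for ligands and their secretion, 2 rose and 0 fell. WNT7B had 14.1 and 13.5 CPM in the controls and 21.0 and 20.9 CPM in the labelled libraries (log2 fold change 0.61, standard error 0.097, adjusted p = 3.49e-05, edgeR). WNT9A had 3.69 and 2.97 CPM in the controls and 5.44 and 5.32 CPM in the labelled libraries (log2 fold change 0.70, standard error 0.18, adjusted p = 0.00763, edgeR). Both encode Wnt ligands, and their groups did not overlap. The call of WNT9A was lost with DESeq2 on all genes with a count (adjusted p = 0.216), which gave it no adjusted p on the filtered genes, and without control replicate 2 (adjusted p = 0.118, edgeR).

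Of 14 tested receptors, 1 fell and 0 rose. This was LGR4, which like LGR5 binds R-spondins, with 13.5 CPM in each control and 8.61 and 9.78 CPM in the labelled libraries (log2 fold change -0.56, standard error 0.12, adjusted p = 0.00114, edgeR). Both labelled libraries were lower, and DESeq2 gave an adjusted p = 0.0565 on all genes with a count and an adjusted p = 0.0337 on the filtered genes. Of 5 tested secreted inhibitors, 1 fell and 0 rose. DKK1, which blocks the LRP receptors, had 162 and 163 CPM in the controls and 139 and 148 CPM in the labelled libraries (log2 fold change -0.18, adjusted p = 0.0282, edgeR). Its groups did not overlap, but it did not pass with DESeq2 on all genes with a count (adjusted p = 0.0777) or on the filtered genes (adjusted p = 0.0697), with all 8 libraries in the same fit (adjusted p = 0.0886, edgeR), or without control replicate 1, control replicate 2 or UBA2 KD replicate 1 (adjusted p = 0.109, 0.141 and 0.189, edgeR).

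Of 19 tested genes of the destruction complex and cytoplasmic transducers, 3 rose and 0 fell. DVL1, the gene of a Dishevelled protein that relays the signal from the receptors, had 178 and 179 CPM in the controls and 222 and 204 CPM in the labelled libraries (log2 fold change 0.26, standard error 0.052, adjusted p = 0.000806, edgeR). CSNK1A1, a kinase that primes beta-catenin for degradation, and TNKS, which marks AXIN proteins for degradation, are named outside the rule after their values were seen. Their log2 fold changes were 0.24 and 0.17. Of 16 tested genes of the nuclear complex, 1 rose and 1 fell. TCF7L2, the TCF with the highest RPKM level in both tables, had 267 and 261 CPM in the controls and 228 and 226 CPM in the labelled libraries, all lower than the controls (log2 fold change -0.22, standard error 0.048, adjusted p = 0.00193, edgeR). The gene that rose was BCL9L, a cofactor of beta-catenin, with 0.20 on the log2 scale, also named after its value was seen.

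**Figure D4:**
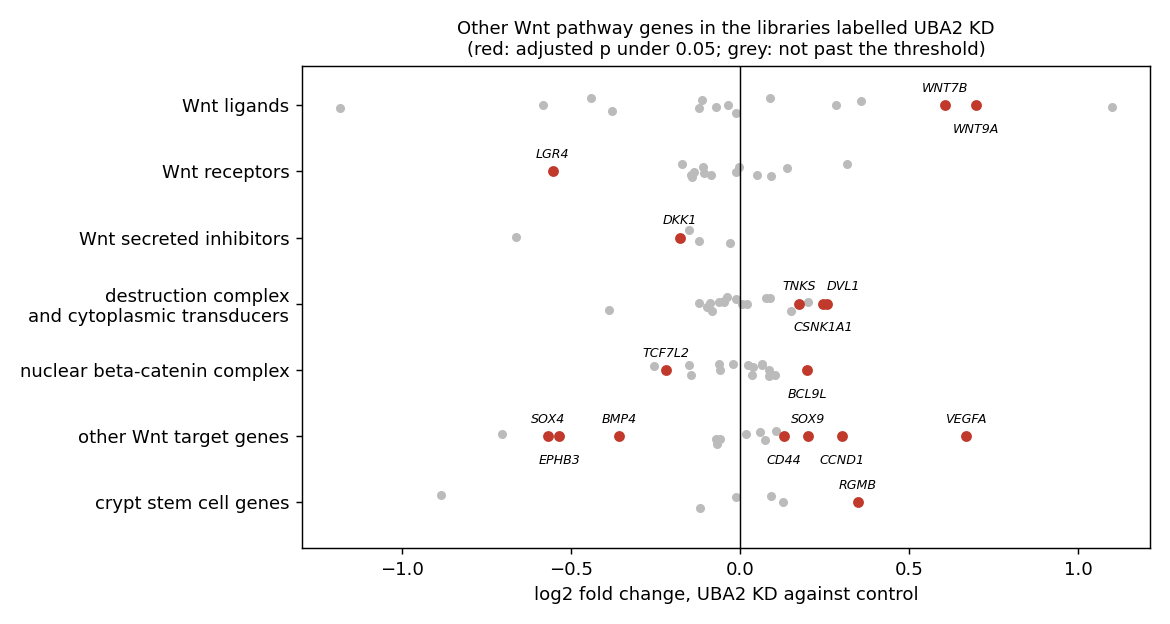
Log2 fold change of the 90 tested Wnt pathway genes outside the 10 targets, libraries labelled UBA2 KD against their control, by gene list. Each point is a gene, red where the adjusted p was under 0.05. Of the 17 red points, 11 lie right of 0 and 6 left.

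Among 15 tested genes of the list of other Wnt targets, 4 rose and 3 fell, so the calls went in both directions. VEGFA, a growth factor for blood vessels, had 76.1 and 74.0 CPM in the controls and 123 and 115 CPM in the labelled libraries (log2 fold change 0.67, standard error 0.059, adjusted p = 3.13e-10, edgeR). CCND1 had 1111 and 1102 CPM in the controls and 1391 and 1337 CPM in the labelled libraries (log2 fold change 0.30, standard error 0.040, adjusted p = 1.11e-06, edgeR). Both labelled libraries were higher for each gene. SOX9 and CD44 rose as well, by 0.20 and 0.13 on the log2 scale, and are named outside the rule after their values were seen.

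SOX4, a transcription factor, fell from 274 and 307 CPM to 183 and 209 CPM (log2 fold change -0.57, standard error 0.058, adjusted p = 6.32e-09, edgeR). BMP4, a ligand of the BMP pathway, fell from 143 and 160 CPM to 117 and 120 CPM (log2 fold change -0.36, standard error 0.058, adjusted p = 4.05e-05, edgeR). EPHB3, a receptor that positions cells along the crypt, fell from 7.53 and 7.81 CPM to 5.72 and 4.89 CPM (log2 fold change -0.53, standard error 0.15, adjusted p = 0.0147, edgeR). In all 3, both labelled libraries lay below both controls. The call of EPHB3 was lost with DESeq2 on all genes with a count (adjusted p = 0.279) and on the filtered genes (adjusted p = 0.207), without control replicate 2 (adjusted p = 0.0681, edgeR) and without UBA2 KD replicate 2 (adjusted p = 0.151, edgeR).

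Of 6 tested genes of crypt stem cells, 1 rose and 0 fell. This was RGMB, a BMP co-receptor, with 25.9 and 26.5 CPM in the controls and 34.8 and 32.0 CPM in the labelled libraries (log2 fold change 0.35, standard error 0.080, adjusted p = 0.00346, edgeR). Both labelled libraries were higher, and the call was lost without UBA2 KD replicate 1 (adjusted p = 0.0507, edgeR). DESeq2 gave an adjusted p = 0.0575 on all genes with a count and an adjusted p = 0.0414 on the filtered genes.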

How the data were processed

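mRNA-seq counts of 8 HCT116 libraries were used. The authors aligned reads to hg19 with Tophat2, counted them on genes with HTSeq (version 0.9.1 in the submitters' processing notes) and deposited raw read counts per gene in a table for each experiment. The counting mode and strand setting are not given in the sources used here. Gene positions are those of GRCh38 in the table of TFAP2C KD and of hg19 in that of UBA2 KD, which differs from the stated methods for the former. Every count column belonged to a sample.

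Analysis used R 4.3.3 and edgeR 4.0.16. After filterByExpr and TMM scaling, a two-sided quasi-likelihood test set each knockdown against the control of its table, with Benjamini-Hochberg adjustment over all genes tested. CPM use TMM-scaled sizes. RPKM divide CPM by the deposited gene length. The standard error is the size of the log2 fold change divided by the square root of F. The difference between experiments was fitted in all 8 libraries over 21257 shared symbols before filtering. At 18213739 to 24465109 counts, the biological coefficient of variation was 6.28% for TFAP2C KD and 3.56% for UBA2 KD. Code was tested on simulated data.

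The 10 genes, the lists and the markers were chosen with earlier results of these data known. The text names all 10, TFAP2C, UBA2, CTNNB1, and up to 6 pathway genes with the largest rise and 6 with the largest fall among those past the threshold in each experiment. Other names were added after their values were seen. Alternatives were DESeq2 1.42.0 (its size factors, and its Wald test on all genes with a count and, added later, on the filtered genes), library size only, no filter, at least 10 counts in every library, a replicate block, all 8 libraries in the same fit and each library left out in turn. Replicate numbers were not taken as pairs.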

Additional observations from a re-analysis of the deposited data

How the results depend on the processing

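In TFAP2C KD, 0 of the 10 genes were called under each alternative run. Over all genes, the 111 calls became 398 without a filter, 271 with all 8 libraries in the same fit, 172 with the replicate block, and between 47 and 2849 with a library left out (47 without control siRNA replicate 1, 49 without control siRNA replicate 2, 532 without TFAP2C KD replicate 1 and 2849 without TFAP2C KD replicate 2). Same-numbered libraries had deviations that correlated at -0.139 in TFAP2C KD and 0.0744 in UBA2 KD. With 2 libraries in each group, this cannot decide whether they were handled in pairs. A crossed replicate block, added after the data were seen, gave 467. Among the other pathway genes, the 0 calls became 1 with DESeq2 (on all genes with a count or on the filtered genes) and without a filter (CCND1 each time), 3 with all 8 libraries and with the crossed block (CCND1, CD44 and TCF7L2 in both), and 0 to 15 with a library left out. In UBA2 KD, DESeq2 without the expression filter called 1 of the 10 genes (AXIN2), 662 of all genes and 11 pathway genes. On the filtered genes, an alternative added after the data were seen, it called 1 (AXIN2), 673 and 12. In UBA2 KD all 8 libraries in the same fit gave 696 of all genes. With a library left out, there were 1 to 2 of the 10 genes, 835 to 1294 of all genes and 11 to 17 pathway genes, the lowest each time without control replicate 2 (for the 10 genes also without UBA2 KD replicate 1). The replicate block left 2 of the 10 genes called in UBA2 KD. For the difference between experiments, 1 gene (NKD1) was called without a filter, and 0 to 1 with a library left out. Signs turned only in values not past the threshold. In TFAP2C KD, log2 fold changes with a library left out ran from -0.29 to 0.097 for AXIN2, -0.046 to 0.14 for TCF7, -0.30 to 0.31 for SP5 (0.0019 without a filter) and -0.056 to 0.0175 for CTNNB1. In UBA2 KD they ran from -0.046 to 0.093 for TCF7 (-0.0065 with library size only), -0.029 to 0.049 for ZNRF3 (-0.016 with library size only), -0.62 to 0.026 for SP5 and -0.11 to 0.037 for UBA2. The differences ran from -0.068 to 0.10 for TCF7 and -0.058 to 0.63 for SP5. Other values that were not called kept their sign but moved in size, in TFAP2C KD from 0.035 to 0.11 for NKD1, 0.010 to 0.12 for NOTUM and 0.035 to 0.17 for ZNRF3, in UBA2 KD from -0.13 to -0.022 for RNF43, and in the difference from 0.14 to 0.48 for NOTUM, 0.11 to 0.47 for RNF43 and 0.022 to 0.14 for ZNRF3. The cause of these shifts was not tested. Depth limits LEF1, LGR5 and ASCL2, which did not pass the expression filter, and SP5, whose counts were 21 to 45 in a library.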

Other observations

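Of 14 tested Wnt receptor genes, 13 had a log2 fold change below 0 in TFAP2C KD, with a median of -0.085 beside -0.0038 over all 14991 genes tested, of which 7359 were above 0. The exception was FZD1, a Frizzled receptor, at 0.014. In 5 of the 14, both knockdown libraries lay below both controls, and in 0 both lay above. Over all genes tested, the groups did not overlap in 44.7%, in either direction. The count of receptors without overlap therefore does not set them apart. The share of all genes that lay below is not given here, so the direction of these 5 has no background beside it. Of the 14, 0 passed the threshold, with 0 also at an unadjusted p under 0.05 and 0 with DESeq2. In the libraries labelled UBA2 KD, 10 of 14 were below 0, with a median of -0.096, beside a median of -0.00042 over all 13381 genes tested, of which 6672 were above 0.

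The TCF and LEF genes differed in level. In the controls of UBA2 KD, TCF7L2 had 53.3 and 52.0 RPKM, TCF7 had 9.18 and 10.1 RPKM and TCF7L1 had 6.86 and 6.53 RPKM, while LEF1 had 0 counts. With control siRNA, TCF7L1 lay above TCF7, with 38.0 and 40.0 RPKM for TCF7L2, 6.20 and 7.23 RPKM for TCF7L1, 4.47 and 4.70 RPKM for TCF7 and 1 to 2 counts for LEF1. In both tables the values of these genes did not overlap in the control libraries. TCF7 had 45.1 and 47.4 CPM with control siRNA and 45.7 and 50.3 CPM in the controls of UBA2 KD. Its listed length was 10.081 kb in the former table and 4.978 kb in the latter. Each order therefore also rests on the gene models of its table, and the change of order is not a comparison of the cells.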
